A study of Drosophila melanogaster with 24 samples.

Results

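Cuticle protein genes encode the structural proteins that epidermal cells secrete into the exoskeleton. The genes described here are every gene of the deposited count table whose symbol starts with Cpr and a digit, Twdl, Ccp84A, Lcp, Pcp, Edg or Acp65A. That rule gave 114 of the 13409 genes in the table, of 125 such genes in the annotation, and the remaining 11 were not analysed here. They were followed in Drosophila melanogaster through 4 stages, which were the imaginal disc of wandering larvae, the pupal antenna 8 h and then 40 h into pupation, and the antenna of adults. Messenger RNA of 3 genotypes was sequenced at every stage, with n = 2 libraries per group and 24 libraries in all. The mutants were w[1118];;rn[tot]/rn[tot], homozygous for an allele of rotund (rn), which encodes a zinc-finger transcription factor. The heterozygotes were w[1118];;rn[tot]/TM6, so they also carried the TM6 balancer chromosome, and the wild type was w[1118];;+/+. All groups share the w[1118] allele. The labels say neither what rn[tot] does to the gene nor whether the libraries of a group came from separate animals, so p-values measure the spread between these libraries, which may be technical.

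Insect cuticle is a composite of chitin fibres and proteins. Most cuticle proteins of the fly, including the Cpr, Lcp, Ccp84A, Pcp, Acp65Aa, Edg78E and Edg84A proteins, carry the Rebers and Riddiford consensus, a chitin-binding domain, while the Tweedle proteins are a separate family. A fly makes a new cuticle for each larval instar, for the pupa and for the adult, each under a pulse of the steroid hormone ecdysone, and the antenna bears sensory bristles whose cuticle is perforated for odour entry. The names record history: Lcp stands for larval, Pcp for pupal and Acp for adult cuticle protein, and Edg genes were isolated as ecdysone-dependent genes of discs.

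By family the 114 genes were 70 Cpr, 17 Tweedle, 10 Lcp65A, 7 Ccp84A, 5 other Lcp and 3 Edg genes, with Pcp and Acp65Aa. Many lie side by side, in coordinates of the BDGP6.54 assembly. The largest group, at 65A, held 18 genes on 3L 6130386 to 6161589: the Lcp65A genes, Acp65Aa and the Cpr65Au to Cpr65Az genes. The Ccp84A genes and Edg84A formed a group of 8 on 3R 6684445 to 6704903. Others were the 8 Cpr49A genes on 2R 12376626 to 12415170, the 7 Cpr47E genes on 2R 11251751 to 11278445 and Lcp1 to Lcp4 on 2R 8430115 to 8438495. After a filter on low counts 85 of the 114 were tested. The 29 others had 2 to 62 counts each over all 24 libraries and at most 1.01 CPM (the count scaled to the size of the library with TMM factors) in any group mean. They included 11 Tweedle genes, Ccp84Ac, Lcp65Aa and Acp65Aa, the gene named for adult cuticle.

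Gene counts ran from 8060181 to 15123603 per library. Of the counts from 1 to 10 in the table, 85.3% were even numbers, so counts are not independent molecules, and limits set by counting cover counting error only. The labelled tissue showed its markers: homothorax (hth), a selector of antennal identity, stood at 920.0 to 1640 CPM in the larval disc and 438 to 1490 CPM later, and the odorant-binding protein gene Obp83a reached 6430 to 10100 CPM in the adult. Of the eye markers, glass (gl) was at 0.189 to 6.63 CPM in the disc, 5.53 to 23.2 CPM at 8 h and at most 1.26 CPM later, and the photoreceptor gene chp at 1.78 to 3.79 and 1.63 to 11.8 CPM in the disc and at 8 h. The rhodopsin gene ninaE was at most 0.568 CPM before the adult and at 0.63 to 74 CPM there. The 4 eye markers summed to 6.3 to 13.2, 7.7 to 36.0, 2.41 to 4.33 and 2.33 to 90.1 CPM over the stages, with the 90.1 CPM in adult heterozygote library 2. rn itself stood at 74.7 and 68.7 CPM in mutants, 48.0 and 51.1 CPM in heterozygotes and 42.7 and 43.7 CPM in wild type in the larva. At 8 h it stood at 48.8 and 44.6 CPM in mutants, 73.9 and 82.2 CPM in heterozygotes and 127 and 79.3 CPM in wild type. Later it was low, at 1.93 and 1.83 CPM in mutants, 4.98 and 2.14 CPM in heterozygotes and 2.15 and 3.02 CPM in wild type at 40 h, and at 1.23 and 1.73, 2.29 and 1.77, and 2.55 and 2.95 CPM in that order in the adult. Both mutant libraries were thus the highest in the larva and the lowest at each later stage. The difference of mutants from wild type was 0.73 ± 0.26 on the log2 scale in the larva (edgeR, adjusted p = 0.278) and -1.14 ± 0.26 at 8 h (adjusted p = 0.0269), where it was -0.76 ± 0.25 (adjusted p = 0.243) without wild type library 1. What rn[tot] does to the transcript is not in the labels, so these levels are given as measured and not used as a check of the genotype. The larval libraries are of disc and the later ones of antenna, so age and dissected tissue cannot be told apart between the larva and 8 h, and in these bulk samples fewer cells and less RNA per cell cannot be told apart. Wild type library 1 at 8 h stood apart from the other 5 libraries of its stage, and to a smaller degree so did heterozygote library 1 at 40 h and mutant library 1 in the adult. Each is described below. Counts of calls and medians that rest on the first of these are given with and without it, but most steps of single genes are not. For the other 2, only medians, ranges and some single genes are given without them. Heterozygote libraries at 8 h also differed from each other, by over 2-fold in 16 of 48 cuticle genes at 5 CPM or more. In heterozygotes at 40 h that was 14 of 35, and in the larva 2 of 12. The chi-square per degree of freedom between libraries was 164, 95.1 and 84 in heterozygotes of the larva, 8 h and 40 h. It was 76.8 in adult mutants and 282 in wild type at 8 h. Leaving out larval or 8 h heterozygote libraries is given only as ranges and for single genes.

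Cuticle protein transcripts were a trace in the larval disc and a large fraction of the early pupal antenna. The 114 genes together took 0.0401% to 0.0693% of the gene counts of a larval library, 6.92% to 13.1% at 8 h, 0.292% to 0.63% at 40 h and 0.185% to 0.256% in the adult. The 6.92% was wild type library 1, and the other 5 libraries at 8 h held 12% to 13.1%. The 0.63% was heterozygote library 1. A few genes made up most of each total: the 5 with the highest wild type CPM held 50.7% of it in the larva, 61.5% at 8 h, 73.9% at 40 h and 83.7% in the adult. In wild type 15 of the 85 tested genes had their highest mean in the larva, 44 at 8 h, 18 at 40 h and 8 in the adult. In that order of stages the counts were 12, 46, 17 and 10 in mutants and 7, 49, 19 and 10 in heterozygotes. The wild type mean at 8 h includes library 1, and peak counts without it are not given here. Of all 10993 genes tested, 26.4% were highest in wild type in the larva, 20.9% at 8 h, 19.7% at 40 h and 33.0% in the adult. In wild type the cuticle genes were thus placed at 8 h (51.8%) more often and in the adult (9.41%) less often. That difference was not tested. The stage of the highest mean was the same in mutants, heterozygotes and wild type for 74 of the 85.

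**Figure D1:**
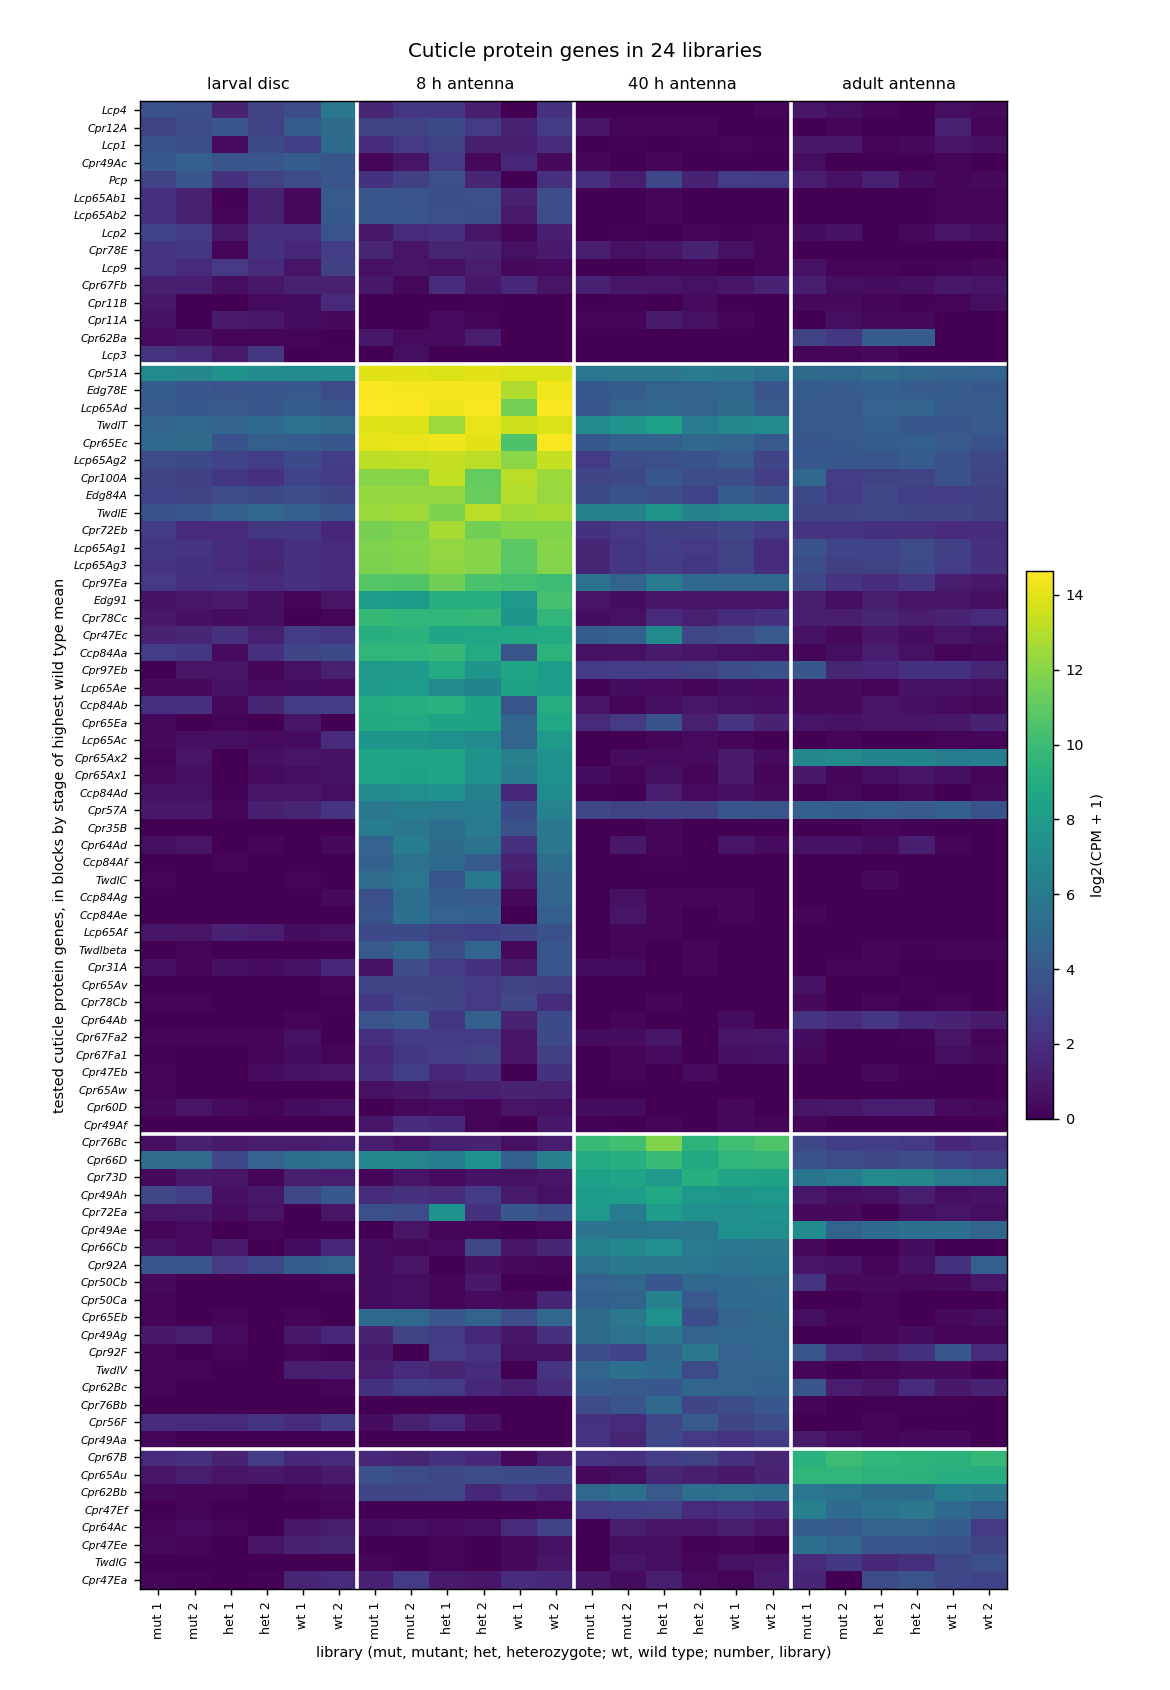
The 85 tested cuticle protein genes (rows) in the 24 libraries (columns: 4 stages, within each mutant, heterozygote and wild type), coloured by log2(CPM + 1). Rows are in blocks by the stage of the highest wild type mean. The 8 h block of 44 genes is bright in the 8 h libraries, with wild type library 1 darker in many rows.

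The steps between stages were tested in each genotype. Here a gene was called when its adjusted p from edgeR's quasi-likelihood test was below 0.05, and log2 changes are given ± SE. From larva to 8 h, 48 of the 85 rose and 3 fell in mutants, where 15.4% of all genes tested rose, 11.3% fell and 26.7% were called in all. In heterozygotes 50 rose and 2 fell (15.9%, 13.8% and 29.6% of all genes), and in wild type 47 rose and 12 fell (22.4%, 17% and 39.3%). Leaving out wild type library 1 gave 48 higher and 6 lower of 89 tested in wild type, with 26.3% of all genes called. Leaving out library 2 gave 36 higher and 12 lower, with 53.5% of all genes called, so the share of members called was then close to the background. From 8 h to 40 h, 17 rose and 52 fell in mutants (28.4% higher, 25.5% lower and 53.9% called of all genes), 20 rose and 51 fell in heterozygotes (28.2%, 25.5% and 53.7%), and 20 rose and 47 fell in wild type (26.9%, 28% and 54.8%). In wild type this was 19 higher and 49 lower of 89 without library 1 at 8 h (52.0% of all genes called) and 21 higher and 35 lower without library 2 (59.7%). From 40 h to adult, 12 rose and 20 fell in mutants (29.3%, 25.7% and 55%), 11 rose and 24 fell in heterozygotes (28.8%, 26% and 54.7%) and 9 rose and 26 fell in wild type (28.8%, 25.8% and 54.6%). The median log2 change of the 85 from larva to 8 h was 4.64 in mutants, 5.86 in heterozygotes and 4.21 in wild type, against -0.1, -0.05 and 0.0 for all genes. The wild type median was 4.5 without library 1 at 8 h and 1.38 without library 2. From 8 h to 40 h it was -5.28, -5.15 and -4.72 in that order of genotypes, against 0.0 for all genes in each, and in wild type it was -4.19 without library 1 at 8 h and -1.99 without library 2. From 40 h to adult it was 0.0, -0.56 and -0.56, against 0.03, 0.03 and 0.01. Leaving out 1 library at a time, this last median ran from -0.45 to 0.0 in mutants (-0.45 without adult library 1), from -0.75 to -0.33 in heterozygotes (-0.33 without library 1 at 40 h) and from -0.6 to 0.0 in wild type (0.0 without library 1 at 40 h and -0.34 without adult library 2). The genotypes at one stage serve in both the step before and the step after it, so successive steps share libraries. Counting only calls made in all 3 genotypes, 43 of the 85 rose and 1 fell to 8 h, where 11.7% of all genes tested rose and 6.22% fell. To 40 h 16 rose and 44 fell (21.7% and 18.8% of all genes), and to the adult 7 rose and 19 fell (23.5% and 21.1%). The rise to 8 h and the fall to 40 h thus held a larger share of the members than of all genes, while the 16 rising to 40 h and the 19 falling to the adult were near the background.

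**Figure D2:**
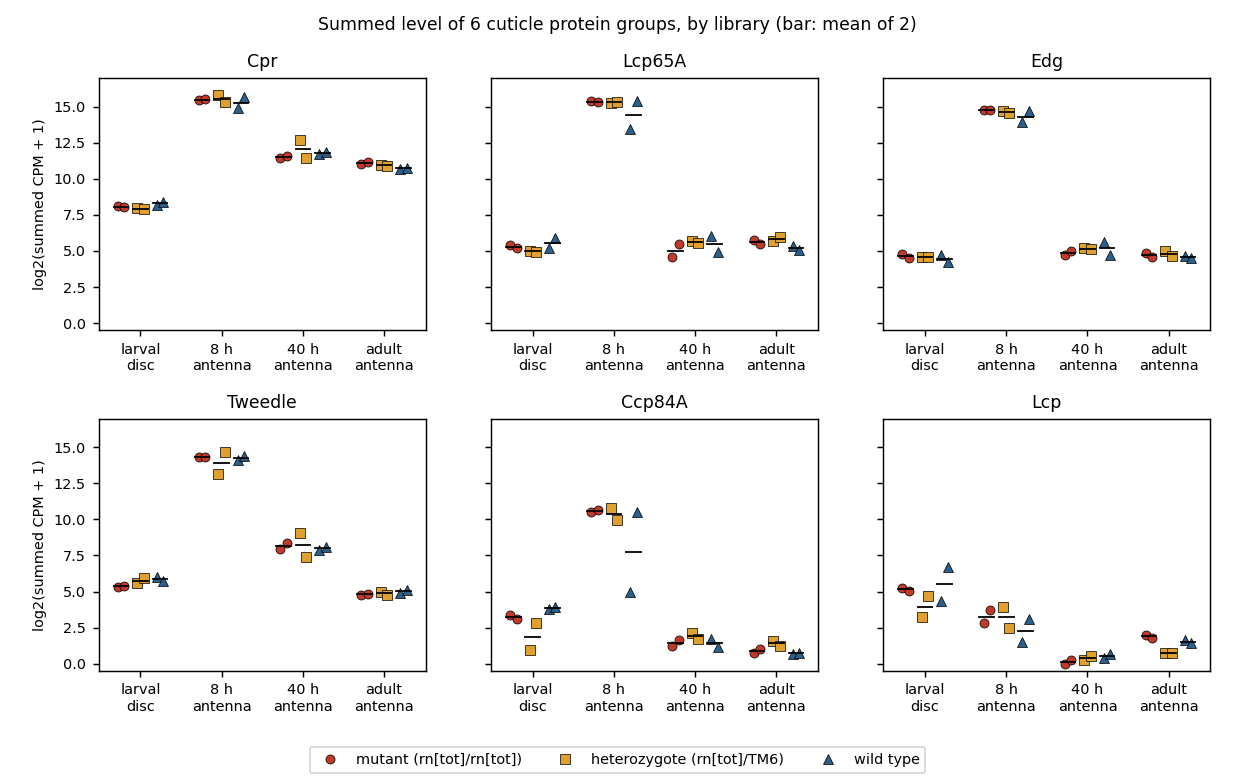
Summed level of the Cpr, Lcp65A, Edg, Tweedle, Ccp84A and other Lcp genes in each library, as log2(summed CPM + 1) on the vertical axis, by stage and genotype; points are libraries and bars the mean of 2. The first 5 groups are highest at 8 h, where the lowest Ccp84A value, 30.1 CPM, is wild type library 1, and the Lcp group is highest in the larva.

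The 8 h antenna carried the pupal group. Summed over the family, Edg genes ran from 15700 to 28100 CPM over the 6 libraries at 8 h, Lcp65A genes from 11500 to 43000 CPM, Cpr genes from 31100 to 57600 CPM, Tweedle genes from 9210 to 26400 CPM and Ccp84A genes from 30.1 to 1780 CPM. In the larva the same sums reached at most 26.6, 57.9, 340, 64.1 and 14.5 CPM. Of the tested members, all 3 Edg, all 6 Ccp84A, 7 of 9 Lcp65A and 4 of 6 Tweedle genes had their highest wild type mean at 8 h. Of the 44 genes with that peak, 13 reached a wild type mean of 1000 CPM and 24 reached 100 CPM.

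Edg78E (FBgn0000551, 3L 21296763 to 21297803) encodes a pupal cuticle protein and is a textbook example of a gene that discs switch on after a pulse of ecdysone. At 8 h it stood at 22840 and 22240 CPM in mutants, 21580 and 21440 CPM in heterozygotes and 7597 and 20180 CPM in wild type. The 6 larval libraries held 9.26 to 19.3 CPM, so the stages did not overlap, and wild type library 1 was the lowest of the 8 h values. The log2 change from larva to 8 h was 10.37 ± 0.61 (adjusted p = 2.73e-09) in mutants, 10.67 ± 0.62 (adjusted p = 2.31e-09) in heterozygotes and 10.15 ± 0.61 (adjusted p = 2.9e-09) in wild type. Edg84A (FBgn0000552, 3R 6684445 to 6685157), the second of these pupal cuticle genes, stood at 5014 and 5159 CPM in mutants, 4986 and 2385 CPM in heterozygotes and 7909 and 5224 CPM in wild type. Here wild type library 1 was the highest value, in contrast to Edg78E. In the larva Edg84A had a median of 7.72 CPM over the 6 libraries. Edg91, the third, had 279.9 and 254 CPM in mutants, 558 and 611 CPM in heterozygotes and 219.8 and 1261 CPM in wild type. Its wild type libraries lay at opposite ends of that range, with both mutant libraries between them and both below the heterozygotes.

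Among Lcp65A genes, whose products are named for the larval cuticle, Lcp65Ad (FBgn0020641, 3L 6143395 to 6144101) had the highest level. Per kb of transcript it stood at 40090 CPM in mutants, 35140 CPM in heterozygotes and 21830 CPM in wild type at 8 h. The libraries held 25450 and 23940 CPM in mutants, 19880 and 23410 CPM in heterozygotes and 3057 and 23840 CPM in wild type, against 13 to 19.2 CPM over the larval libraries. All values at 8 h lay above all larval ones, and wild type library 1 was far below the other 5. The step was 10.55 ± 0.89 (adjusted p = 1.3e-07) in mutants, 10.47 ± 0.89 (adjusted p = 1.44e-07) in heterozygotes and 9.70 ± 0.86 (adjusted p = 2.18e-07) in wild type. Lcp65Ag2 had 9411 and 9717 CPM in mutants, 10430 and 8832 CPM in heterozygotes and 4356 and 10580 CPM in wild type, also with the lowest value in wild type library 1. Its neighbours Lcp65Ag1 and Lcp65Ag3 are near-identical copies, and over the 23 libraries with 20 or more counts in both, the ratio of Lcp65Ag1 to Lcp65Ag3 was 0.943 to 1.15, so the counts of the copies may be shared and are uncertain individually. Lcp65Ae (FBgn0020640, 3L 6137583 to 6138118) stood at 228 and 260.0 CPM in mutants, 121 and 97.4 CPM in heterozygotes and 341 and 282 CPM in wild type, with heterozygotes below both other genotypes. Lcp65Ab1 and Lcp65Ab2, another near-identical pair, were 1.5 to 14 and 1.09 to 14.4 CPM at 8 h and at most 0.216 CPM at 40 h.

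The Cpr genes are the largest family of chitin-binding cuticle proteins. Cpr51A (FBgn0033942, 2R 14512559 to 14515211) had 16160 and 16450 CPM in mutants, 15200 and 16110 CPM in heterozygotes and 14320 and 14900 CPM in wild type at 8 h. Wild type library 1 was the lowest value, but at 88.9% of the median of the other libraries. Cpr51A was also the gene with the highest level per kb in the larval disc, 198 CPM in wild type, with 107 to 174 CPM over the larval libraries and a step of 7.15 ± 0.31 (adjusted p = 1.27e-10) in mutants and 6.83 ± 0.31 (adjusted p = 1.45e-10) in wild type. Cpr65Ec (FBgn0035737, 3L 7093204 to 7093841) reached nearly the same level per kb in wild type at 8 h, 22060 CPM against 22450 CPM for Cpr51A, but in libraries of 16920 and 18520 CPM in mutants, 19700 and 16080 CPM in heterozygotes and 1468 and 23500 CPM in wild type. Its wild type libraries were the lowest and the highest of the 6, while the mutant libraries lay between the heterozygote ones. Cpr100A and Cpr72Eb varied more between heterozygote libraries, with 9861 and 2242 CPM and 6774 and 2931 CPM, than between mutants, with 4013 and 4066 CPM and 3229 and 3596 CPM. Cpr78Cc, beside Edg78E on 3L, had 886 and 783 CPM in mutants, 778 and 873 CPM in heterozygotes and 202 and 794 CPM in wild type. Cpr35B was listed at 0 in all larval libraries and at a median of 55.5 CPM over the 6 libraries at 8 h, where its level was at least 554-fold higher in mutants, 378-fold higher in heterozygotes and 295-fold higher in wild type, taking 3 counts over the group as the limit.

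Tweedle proteins are cuticle proteins known in the fly from a dominant allele that alters body shape. TwdlT (FBgn0029170, 3R 27049220 to 27051004) stood at 15480 and 14700 CPM in mutants, 5716 and 17520 CPM in heterozygotes and 11830 and 14890 CPM in wild type at 8 h, with the lowest value in heterozygote library 1. TwdlE had 5500 and 6002 CPM in mutants, 3473 and 8839 CPM in heterozygotes and 5946 and 6684 CPM in wild type, again lowest in that library, and both were higher than 26.8 to 42.2 and 12.1 to 27.3 CPM in the larva. TwdlE shares 71.9% of its transcript with lectin-28C on the opposite strand, and how the counting treated strand is not given in the sources used here, so part of its count may belong to that gene. TwdlC, 36.1 and 52 CPM in mutants, 13 and 59.8 CPM in heterozygotes and 1.09 and 26.6 CPM in wild type, was low in wild type library 1 too, and its heterozygote libraries lay on either side of the mutant ones. Of the Ccp84A genes, Ccp84Aa (FBgn0004783, 3R 6704084 to 6704903) had 755 and 788 CPM in mutants, 899 and 500.5 CPM in heterozygotes and 13.1 and 712 CPM in wild type. Wild type library 1 lay far below the rest. The larva-to-8 h change of Ccp84Aa was 7.36 ± 1.21 (adjusted p = 0.00019) in mutants, 8.64 ± 1.32 (adjusted p = 9.17e-05) in heterozygotes and 5.53 ± 1.11 (adjusted p = 0.000982) in wild type. All 7 tested genes of its genomic group, the 6 Ccp84A genes and Edg84A, peaked at 8 h.

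Wild type library 1 at 8 h differed from the other 5 libraries in most cuticle genes, but not in all. Of 48 members with at least 5 CPM on average in the other 5, it lay below their range in 32, inside in 14 and above in 2, Lcp65Ae and Edg84A. Over the 7635 genes at that level, 38.7% were below and 43.7% above, so the library differed widely, and in the cuticle genes mostly downward. In 12 members it held under 10% of the median of the other libraries, including all 6 tested Ccp84A genes, Cpr65Ec, Cpr65Ea, Cpr64Ad, TwdlC, Twdlbeta and Pcp. TwdlT, TwdlE, Cpr72Eb, Cpr97Ea and Cpr47Ec held levels inside the range of the other libraries. Of 24 genes of chitin handling at 5 CPM or more in this library or on average in the others, 10 lay below the others, 9 inside and 5 above, where 37.4% of the 7908 genes at that level were below and 45.3% above. The secreted chitin-binding protein gene obst-B stood at 192 CPM, against 1740 to 1980 CPM, and mmy, which encodes the enzyme that makes the activated sugar of chitin, at 459 CPM, against 1200 to 1380 CPM, while Gasp, another chitin-binding protein gene, was at 29100 CPM, against 13800 to 17100 CPM. Of 11 ecdysone timing genes at 5 CPM or more, 8 were above the other libraries in this one, 2 below and 1 inside. ftz-f1, a nuclear receptor of the mid-prepupa known to bind the Edg84A promoter, stood at 1160 CPM, against 324 to 797 CPM in the others. Eip93F, a late factor of metamorphosis, was at 1280 CPM, against 232 to 719 CPM, EcR, the ecdysone receptor gene, at 261 CPM, against 105 to 123 CPM and br, an early response gene, at 192 CPM, against 85.3 to 111 CPM. All 3 neuronal markers at that level were above the others, elav at 447 CPM, against 152 to 199 CPM, nSyb at 21.9 CPM, against 8.78 to 15.7 CPM and brp at 17.6 CPM, against 2.76 to 10.8 CPM, and the list of 5 summed to 492 CPM, against 178 to 227 CPM. These values move with the cuticle genes in 1 library. Their part in the result was not tested.

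**Figure D3:**
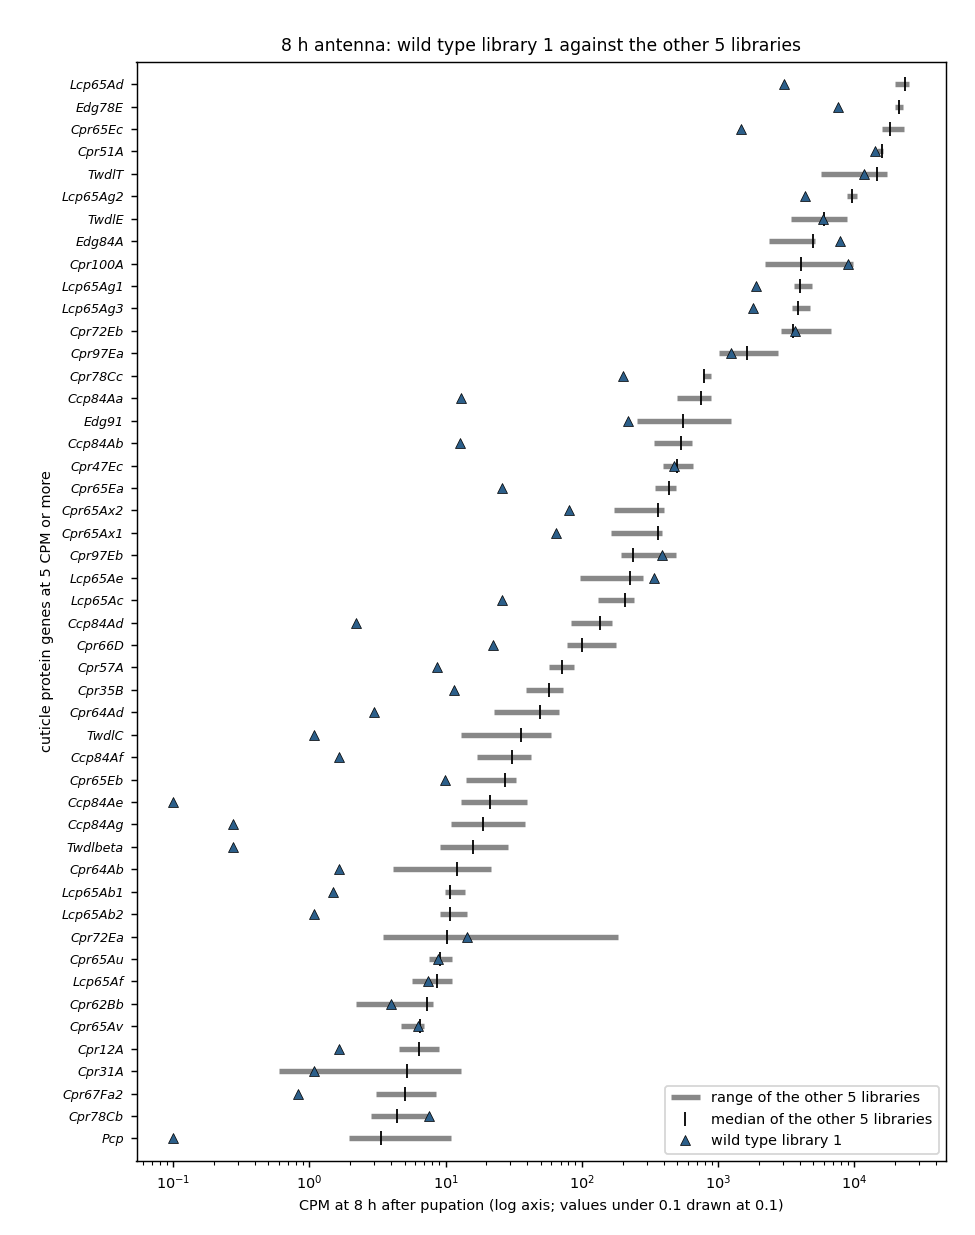
Cuticle protein genes at 5 CPM or more at 8 h (rows), with CPM on a log axis. Triangles are wild type library 1, grey bars the range of the other 5 libraries and ticks their median. Triangles lie left of 32 bars of 48, with the Ccp84A genes far left and Edg84A and Lcp65Ae to the right.

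By 40 h the pupal group was down and a different, smaller group was up. Ccp84Aa fell by 10.36 ± 1.47 on the log2 scale in mutants (adjusted p = 1.57e-05), by 9.51 ± 1.40 in heterozygotes (adjusted p = 2.35e-05) and by 9.44 ± 1.45 in wild type (adjusted p = 3.59e-05), to 0.444 to 1.08 CPM. Edg78E fell to 13.2 to 30.1 CPM, with changes of -10.36 ± 0.61 (adjusted p = 9.49e-10) in mutants, -9.74 ± 0.60 (adjusted p = 1.42e-09) in heterozygotes and -9.32 ± 0.59 (adjusted p = 1.88e-09) in wild type. TwdlE and TwdlT fell less, to 86.3 to 186 and 65 to 318 CPM. TwdlC was listed at 0 in all 6 libraries at 40 h, at least 300-fold lower than at 8 h in mutants, 253-fold lower in heterozygotes and 117-fold lower in wild type. DESeq2 did not call the heterozygote and wild type falls, and the wild type call was also lost without library 2 at 8 h.

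Of the 18 genes whose highest wild type mean was at 40 h, when bristles and adult cuticle form, all but TwdlV were Cpr genes, and 4 of the 6 tested genes of the Cpr49A group were among them. Cpr66D (FBgn0052029, 3L 8640439 to 8643584) and Cpr76Bc (FBgn0036880, 3L 19520945 to 19527272) had the highest levels per kb, 747 and 728 CPM in wild type. Cpr76Bc stood at 969.8 and 1185 CPM in mutants, 3686 and 706 CPM in heterozygotes and 1146 and 1530 CPM in wild type, against 0.546 to 1.71 CPM at 8 h. Heterozygote library 1 was the highest value and heterozygote library 2 the lowest, with the mutant and wild type libraries between them. Its change from 8 h was 10.12 ± 0.77 (adjusted p = 1.32e-08) in mutants, 10.41 ± 0.76 (adjusted p = 8.14e-09) in heterozygotes and 10.50 ± 0.78 (adjusted p = 1.1e-08) in wild type. Cpr73D rose to 324 and 372 CPM in mutants, 235 and 578 CPM in heterozygotes and 366 and 342 CPM in wild type, against 0.198 to 0.735 CPM at 8 h. Cpr66D was already present at 8 h at 22.4 to 178 CPM and rose to 488 and 595 CPM in mutants, 912 and 476 CPM in heterozygotes and 780.0 and 869 CPM in wild type (2.42 ± 0.53, adjusted p = 0.00105 in mutants, 2.43 ± 0.53, adjusted p = 0.000986 in heterozygotes and 3.99 ± 0.57, adjusted p = 1.75e-05 in wild type). Cpr49Ah (FBgn0033731, 2R 12413962 to 12415170) stood at 255 and 299.7 CPM in mutants, 416 and 219.5 CPM in heterozygotes and 209 and 221 CPM in wild type, with steps of 6.57 ± 0.47 (adjusted p = 6.86e-09), 6.39 ± 0.46 (adjusted p = 7.05e-09) and 8.09 ± 0.54 (adjusted p = 3.4e-09) in mutants, heterozygotes and wild type. Cpr49Ae rose in each genotype and stood at 48.5 and 50.7 CPM in mutants, 51.8 and 55.3 CPM in heterozygotes and 165 and 153 CPM in wild type. Both wild type libraries lay above all 4 others, and the difference of mutants from wild type, -1.68 ± 0.54 (adjusted p = 0.235), did not pass the threshold. Cpr72Ea rose in mutants and wild type. In heterozygotes its change was 1.18 ± 0.93 (adjusted p = 0.307), and heterozygote library 1 already held 184 CPM at 8 h, against 3.49 to 14.5 CPM in the other 5.

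Heterozygote library 1 at 40 h lay above the other 5 libraries in 18 of 38 cuticle genes at 5 CPM or more, below in 4 and inside in 16, where the cut is 5 CPM in that library or on average in the others, against 26.1% above and 26.1% below over 8162 genes. Cpr76Bc held 3690 CPM there, against 706 to 1530 CPM in the others, and Cpr47Ec 127 CPM, against 7.61 to 21.4 CPM. Muscle genes moved with it: 5 of 6 markers were above the other libraries, Mlc2, a myosin light chain gene, at 603 CPM, against 114 to 288 CPM, and the list summed to 867 CPM there and to 184 to 407 CPM in the others. Neuronal markers were below in 4 of 5. The part of either in the cuticle genes was not tested.

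In the adult antenna 2 genes dominated. Cpr65Au (FBgn0042119, 3L 6131242 to 6132109) stood at 749 and 803 CPM in mutants, 707 and 687 CPM in heterozygotes and 567 and 558 CPM in wild type, against 0.29 to 1.84 CPM at 40 h. Its step was 10.93 ± 0.33 (adjusted p = 1.15e-12) in mutants, 8.80 ± 0.29 (adjusted p = 2.84e-12) in heterozygotes and 8.65 ± 0.29 (adjusted p = 2.22e-12) in wild type. Cpr65Au lies inside the 65A group, where in wild type 11 of the 14 tested genes peak at 8 h, 2 in the larva and only Cpr65Au in the adult. The 2, Lcp65Ab1 and Lcp65Ab2, did not peak at the same stage in all 3 genotypes. Of the Cpr65Au transcript, 92.3% overlaps an antisense RNA gene, asRNA:CR46005, so reads of these genes cannot be told apart unless strand was used in counting. Cpr67B (FBgn0035985, 3L 9404797 to 9406174) stood at 653 and 1031 CPM in mutants, 805 and 731 CPM in heterozygotes and 666 and 851 CPM in wild type, against 1.95 to 6.13 CPM at 40 h, and rose by 7.92 ± 0.47, 7.08 ± 0.45 and 8.17 ± 0.47 in mutants, heterozygotes and wild type (adjusted p = 5.08e-10, 1.07e-09 and 3.99e-10). Per kb, wild type adults held 1240 CPM of Cpr65Au, 751 CPM of Cpr67B and 98.9 CPM of Cpr65Ax2.

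The counts of Cpr65Ax1 and Cpr65Ax2, near-identical neighbours of the 65A group, parted between stages. The transcripts counted differ in length, 389 bases for Cpr65Ax1 and 732 bases for Cpr65Ax2. Whether the adult reads lie in a stretch that only the longer one holds was not tested. At 8 h Cpr65Ax1 had 389 and 362 CPM in mutants, 390.3 and 165 CPM in heterozygotes and 64.7 and 163 CPM in wild type, and Cpr65Ax2 had 404 and 367 CPM in mutants, 399 and 172 CPM in heterozygotes and 81 and 176 CPM in wild type. Their ratio over the 6 libraries with 20 or more counts in both was 0.799 to 0.985, so reads shared between the copies cannot be told apart there. In the adult Cpr65Ax2 stood at 108 and 119.7 CPM in mutants, 95.2 and 97 CPM in heterozygotes and 69.3 and 75.5 CPM in wild type, while Cpr65Ax1 stayed at 0.155 to 0.997 CPM. Both were at most 1.07 CPM at 40 h in every library, and Cpr65Ax2 rose to the adult by 9.13 ± 0.77 in mutants, 8.06 ± 0.72 in heterozygotes and 6.67 ± 0.65 in wild type (adjusted p = 3.65e-08, 7.19e-08 and 1.99e-07).

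The other genes that rose to the adult in all genotypes were lower. Cpr47Ef stood at 82 and 34 CPM in mutants, 42.2 and 54.7 CPM in heterozygotes and 30.5 and 20.8 CPM in wild type, against 2.13 to 6.06 CPM at 40 h. Cpr47Ee had 37.7 and 29.1 CPM in mutants, 13.5 and 13.6 CPM in heterozygotes and 11.2 and 7.45 CPM in wild type, with both mutant libraries above the heterozygote and wild type ones. Cpr64Ac had 18.2 and 17.3 CPM in mutants, 24.5 and 24.9 CPM in heterozygotes and 18.2 and 4.5 CPM in wild type, and its wild type call rests on library 1, without which the change was 2.11. TwdlG, at 2.22 to 10.7 CPM, was the only Tweedle gene among them. Cpr62Bb was highest in the adult but shared its level with 40 h: 52.1 and 43 CPM in mutants, 35.5 and 35.6 CPM in heterozygotes and 70.9 and 57.3 CPM in wild type, against 16.2 to 43.4 CPM, and its step passed the test in no genotype. Among the 19 genes that fell in all genotypes, Cpr49Ah dropped to 0.436 to 1.39 CPM (-8.61 ± 0.53, -8.32 ± 0.51 and -8.65 ± 0.55 in mutants, heterozygotes and wild type). Cpr76Bc dropped to 2.11 to 7.9 CPM and Cpr66D to 4.81 to 12.1 CPM, while Cpr73D, which also fell, was still at a median of 64.7 CPM.

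Mutant library 1 in the adult lay above the other 5 in 12 of 30 cuticle genes at 5 CPM or more, below in 2 and inside in 16, against 20.1% above and 22.7% below over 8567 genes. Cpr49Ae held 130 CPM there, against 25.0 to 39.2 CPM, and Cpr62Bc 13.3 CPM, against 0.694 to 2.65 CPM. All 6 muscle markers were above the other libraries in it, Mlc2 at 389 CPM, against 57.8 to 149 CPM, and their sum was 546 CPM, against 83.9 to 209 CPM. All 3 fat body genes at that level were above as well. Their part in the cuticle values was not tested.

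In the larval disc a few cuticle genes were at their highest, at low levels. They include Lcp1 to Lcp4 and Lcp9, named for larval cuticle, while 7 of the 9 tested Lcp65A genes, named likewise, peaked at 8 h in wild type. Lcp1 to Lcp4, Lcp9 and Pcp were highest there in wild type, and the 4 genes at 2R 8430115 to 8438495 did so together. Lcp4 (FBgn0002535, 2R 8437647 to 8438495), the highest of them per kb at 40.7 CPM in wild type, had 11.6 and 10.8 CPM in mutants, 1.79 and 6.06 CPM in heterozygotes and 9.84 and 54.6 CPM in wild type. The wild type libraries lay on either side of the mutant ones, and both heterozygote libraries lay below all others. Lcp1 had 12.1 and 10.6 CPM in mutants, 0.359 and 8.74 CPM in heterozygotes and 5.68 and 32.5 CPM in wild type, with the same lowest and highest library as Lcp4. Pcp, named as a pupal cuticle protein, had 6.97 and 14.6 CPM in mutants, 3.23 and 6.06 CPM in heterozygotes and 9.09 and 13.8 CPM in wild type in the larva and 0 to 10.9 CPM at 8 h, where wild type library 1 was at 0. Cpr12A had 6.53 and 9.64 CPM in mutants, 13.4 and 6.24 CPM in heterozygotes and 19.1 and 34.8 CPM in wild type, and Cpr49Ac 15.1 and 21.3 CPM in mutants, 12.8 and 13.6 CPM in heterozygotes and 18 and 13.9 CPM in wild type. Fat body genes ran from 59.7 to 325 CPM and muscle genes from 41.6 to 247 CPM as sums over the larval libraries, both highest in wild type library 2, where Lcp1, Lcp2, Lcp4 and Cpr12A were also highest. That relation was not tested. Cpr92A (FBgn0038714, 3R 19597502 to 19598955) was the one member that fell to 8 h in every genotype: it stood at 13.6 and 13.7 CPM in mutants, 4.3 and 8.02 CPM in heterozygotes and 18.7 and 25.5 CPM in wild type in the larva, at 0 to 0.699 CPM at 8 h and at 44.4 to 58.7 CPM at 40 h. The fall was -4.64 ± 0.80 (adjusted p = 0.000285) in mutants, -4.52 ± 0.89 (adjusted p = 0.000972) in heterozygotes and -6.58 ± 0.91 (adjusted p = 2.86e-05) in wild type.

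The most abundant pupal genes kept a low level at the other stages. For the 13 genes with at least 1000 CPM at 8 h in every genotype, the mean over genotypes in the larva was 0.0732% to 0.85% of the 8 h mean, with a median of 0.0926%. At 40 h it was 0.11% to 2.23% (median 0.134%) and in the adult 0.0794% to 0.205% (median 0.124%). Levels of this size, such as 15.6 to 22.3 CPM of Edg78E and 15.8 to 26.4 CPM of Lcp65Ad in the adult, are given as measured and are not read here as expression at those stages. Where their reads came from was not tested.

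Between genotypes, few cuticle genes passed the test, as did few of all genes. None did so in mutants against both controls, where at most 0.246% of all genes did. A count of 0 among the 85 members is near that share and is not a result about the cuticle genes. The comparison of mutants with wild type holds the effect of rn[tot] together with any other difference between the stocks, and these cannot be told apart. The heterozygotes are a second control that shares the rn[tot] allele. The count of members called in the mutant against both controls in the same direction was 0 at each of the 4 stages with edgeR and with DESeq2, where 0.0728%, 0.0637%, 0.0546% and 0.246% of all genes were called from larva to adult. At an unadjusted p below 0.05 against both controls the counts were 0 in the larva, 1 at 8 h, 3 at 40 h and 3 in the adult. Those in the adult were Cpr47Ea, Cpr62Bc and Cpr97Eb. Cpr62Bc averaged 7.3 CPM (SD 8.54) in adult mutants and 1.67 CPM (SD 1.38) in heterozygotes. Cpr97Eb averaged 8.3 CPM (SD 9.07) and 2.81 CPM (SD 0.837) in that order. For both genes the mutant and heterozygote libraries overlapped. The highest Cpr62Bc value, 13.3 CPM, was that of mutant library 1, which stood apart as described above. Neither gene is given without that library. Cpr47Ea averaged 0.92 CPM in adult mutants (SD 1.3). In heterozygotes it averaged 11.04 CPM (SD 1.96) and in wild type 7.2 CPM (SD 0.517). Its change of mutants against heterozygotes was -3.56 ± 0.93 (edgeR, adjusted p = 0.259). Of its transcript, 19.7% overlaps Or47a on the opposite strand, so part of its count may belong to that gene.

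**Figure D4:**
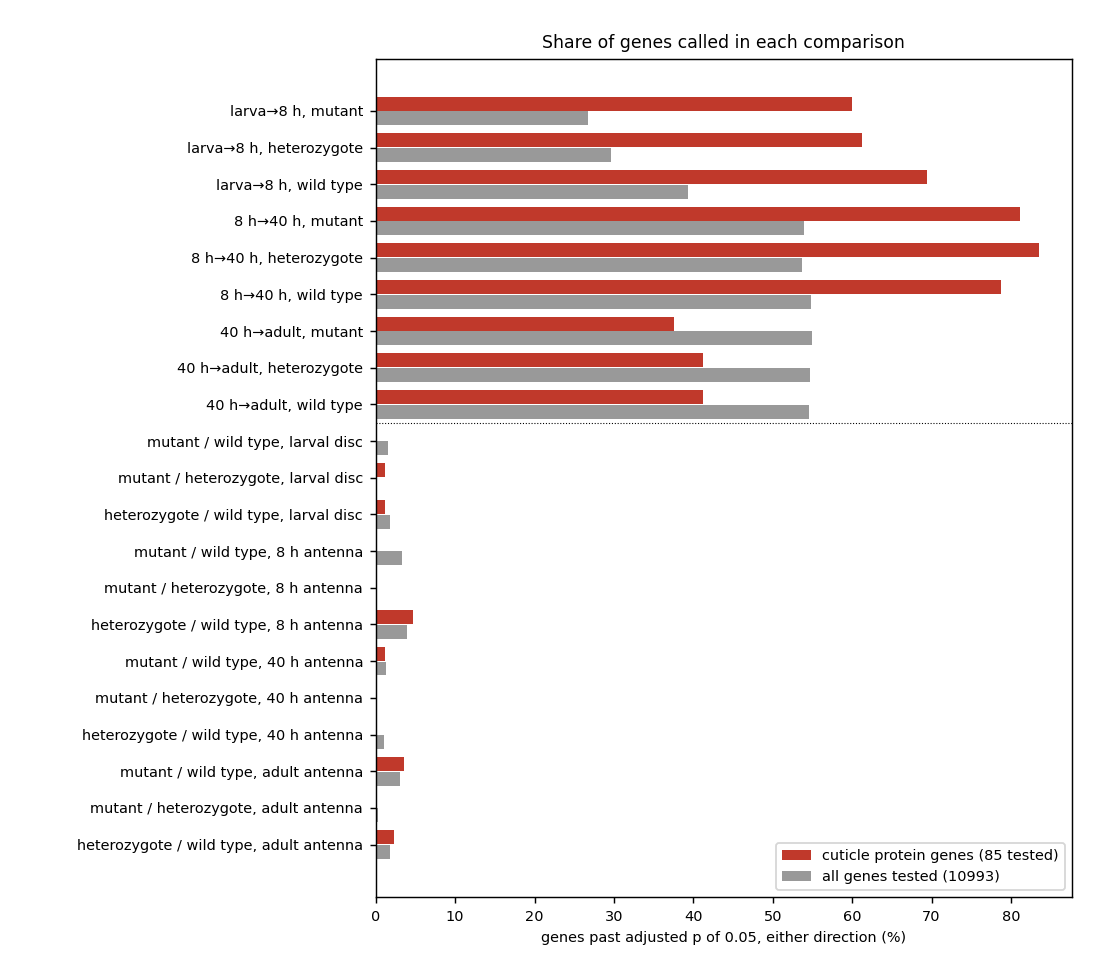
Share of genes past an adjusted p of 0.05 in either direction (horizontal axis, %) for the 85 tested cuticle protein genes (red) and all 10993 genes tested (grey). The 9 comparisons above the dotted line are steps between stages and the 12 below it compare genotypes. Below it no share of cuticle genes exceeds 4.71% and no share of all genes exceeds 3.94%.

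In the larval disc, 0 of 85 members were called between mutants and wild type, where 1.54% of all genes were. At an unadjusted p below 0.05 there were 6, and DESeq2 called 2. Every background given is that of edgeR's adjusted p. The share over all genes is not given for counts at an unadjusted p or with DESeq2, here or elsewhere. Those counts are thus not set against a background. Against heterozygotes 1 member rose in mutants (background 0.164%), and 1 fell in heterozygotes against wild type (background 1.86%), the same gene in both cases. Cpr49Ah stood at 7.56 and 5.58 CPM in mutants, 0.538 and 0.892 CPM in heterozygotes and 7.57 and 15.6 CPM in wild type, with both heterozygote libraries below the other 4. The change of mutants against heterozygotes was 3.18 ± 0.54 (adjusted p = 0.0199), of heterozygotes against wild type -4.01 ± 0.52 (adjusted p = 0.000286) and of mutants against wild type -0.82 ± 0.39 (adjusted p = 0.567). The first of these lost its call when heterozygote library 1 (2.87), mutant library 1 (2.95) or mutant library 2 (3.39) was left out, and both lost it when only larval libraries were fitted. The heterozygotes differ from both other genotypes in carrying TM6, so the allele dose and the balancer cannot be told apart.

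At 8 h, 0 members were called between mutants and wild type (background 3.36%, 10 members at an unadjusted p below 0.05, 5 with DESeq2). Against heterozygotes 0 were called (background 0.091%, 5 at an unadjusted p below 0.05, 1 with DESeq2), and 4 between heterozygotes and wild type, 2 higher and 2 lower (background 3.94%). The comparisons with wild type rest on which wild type library is used. Leaving out wild type library 1 gave 1 lower member between mutants and wild type and 2 lower between heterozygotes and wild type, with 1.27% and 1.29% of all genes called. Leaving out library 2 instead gave 27 higher members of 89 tested for mutants, and 31 higher and 2 lower for heterozygotes, with 42.3% and 42.4% of all genes called. The median log2 change of mutants against wild type was 0.56 with both libraries, 0.02 without library 1 and 1.39 without library 2.

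Lcp65Ae had the smallest adjusted p of the members at 8 h. As given above, its heterozygote libraries lay below all mutant and wild type libraries. Only the heterozygotes carried TM6, so the allele dose and the balancer cannot be told apart here either. The change of heterozygotes against wild type was -1.51 ± 0.24 (adjusted p = 0.0018), which lost its call only in the fit of the 8 h libraries alone (-1.45), and that of mutants against heterozygotes was 1.16 ± 0.23 (adjusted p = 0.0908). The other calls between heterozygotes and wild type were low genes: Cpr49Ah with 2.6 and 4.88 CPM against 1.09 and 0.551 CPM, Cpr64Ac with 0.371 and 0.488 CPM against 2.46 and 6.25 CPM, and Cpr56F with 2.41 and 0.65 CPM, where wild type was listed at 0 and the total was at least 8.94-fold higher in heterozygotes. All 3 lost their call when wild type library 1 was left out, at 2.75 for Cpr49Ah and -3.82 for Cpr64Ac. The ecdysone-dependent gene Edg91 was the 1 member below both controls when wild type library 1 was left out: -2.24 against wild type and -1.13 against heterozygotes, where with all libraries the values were -1.47 ± 0.51 (adjusted p = 0.102) and -1.13 ± 0.50 (adjusted p = 1.0). Cpr65Ax1 and Cpr65Ax2 were above wild type in both mutant libraries at 8 h (1.72 ± 0.49, adjusted p = 0.0631, and 1.58 ± 0.45, adjusted p = 0.061), short of the threshold.

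At 40 h, 1 member fell in mutants against wild type (background 1.29%). Cpr65Au, at 0.29 and 0.481 CPM in mutants, 1.84 and 1.3 CPM in heterozygotes and 0.978 and 1.78 CPM in wild type, had a change of -1.82 ± 0.40 (adjusted p = 0.0321) against wild type and -1.98 ± 0.40 (adjusted p = 0.115) against heterozygotes. Both mutant libraries lay below the other 4. The call was lost with DESeq2, in the fit of the 40 h libraries alone, and without wild type library 2 (-1.32), mutant library 1 (-1.51) or mutant library 2 (-2.22). Against heterozygotes 0 members were called (background 0.0819%, 6 at an unadjusted p below 0.05, 0 with DESeq2), and likewise 0 between heterozygotes and wild type (background 1.02%, 4 at an unadjusted p below 0.05, 0 with DESeq2).

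In the adult, 2 members rose and 1 fell in mutants against wild type (background 3.08%), 0 were called against heterozygotes (background 0.291%, 6 at an unadjusted p below 0.05, 0 with DESeq2), and 1 rose and 1 fell in heterozygotes against wild type (background 1.82%). Cpr62Ba (FBgn0035279, 3L 1824129 to 1831783) had 6.44 and 4.17 CPM in mutants and 18.1 and 18.2 CPM in heterozygotes and was listed at 0 in both wild type libraries. The total was at least 47.2-fold higher in mutants (137 counts; adjusted p = 0.00169) and at least 161-fold higher in heterozygotes (550 counts; adjusted p = 0.000511). Both calls were kept under every alternative and every left-out library. At the other stages Cpr62Ba was near the floor. Mutants, heterozygotes and wild type held 11, 4 and 2 counts in the larva and 13, 18 and 0 counts at 8 h. At 40 h it was listed at 0 in all 6 libraries. The difference is thus not shown to be particular to the adult. The neighbouring genes Cpr62Bb and Cpr62Bc were present in wild type adults at 70.9 and 57.3 and 1.02 and 1.63 CPM. What sets Cpr62Ba apart from them was not tested. Whether the stocks share the rest of their chromosomes is not given in the labels, so the allele and the background cannot be told apart.

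Cpr92A stood at 0.767 and 0.629 CPM in adult mutants, 0.139 and 0.631 CPM in heterozygotes and 3.35 and 19.7 CPM in wild type. Both wild type libraries lay above the other 4 but differed in CPM from each other more than the lower one did from the mutants. Mutants differed from wild type by -4.02 ± 0.73 (adjusted p = 0.00427). For heterozygotes the difference was -4.83 ± 0.77 (adjusted p = 0.00233). Without wild type library 2 it was -2.24 in mutants, and without mutant library 1 or 2 it was -4.17 and -3.89, all short of the threshold, as was the -4.17 of heterozygotes without their library 1. Cpr97Ea had 7.51 and 3.78 CPM in mutants, 2.78 and 3.91 CPM in heterozygotes and 1.16 and 0.932 CPM in wild type, so both wild type libraries were lowest and the mutant and heterozygote libraries overlapped. Its change in mutants against wild type was 2.42 ± 0.50 (adjusted p = 0.0101), lost without mutant library 1 (1.84), wild type library 1 (2.58) or wild type library 2 (2.27).

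**Figure D5:**
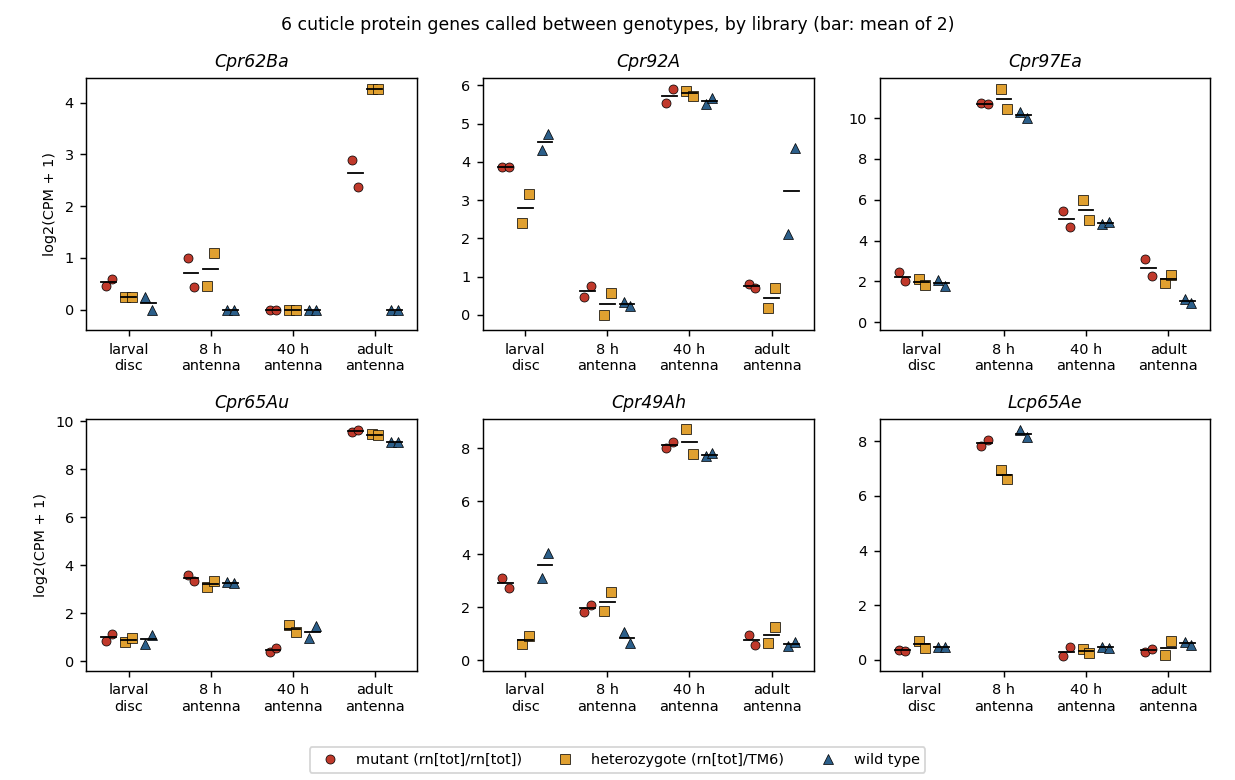
Cpr62Ba, Cpr92A, Cpr97Ea, Cpr65Au, Cpr49Ah and Lcp65Ae, cuticle protein genes with a call in a genotype comparison, as log2(CPM + 1) in each library by stage; points are libraries and bars the mean of 2. Cpr62Ba is at 0 in adult wild type and between 4.17 and 18.2 CPM in the other adult libraries.

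The step sizes themselves differed between mutants and wild type for 0 members from larva to 8 h (background 0.282%, 5 at an unadjusted p below 0.05, 1 with DESeq2) and 0 from 8 h to 40 h (background 0.391%, 9 at an unadjusted p below 0.05, 3 with DESeq2). Without wild type library 2 at 8 h these counts were 15 and 18 of 89, with 29.9% and 30.9% of all genes called, so these counts do not exceed the background share. Without library 1 they were 0 and 1, with 0.115% and 0.372% of all genes called. From 40 h to adult 2 members differed (background 0.746%): Cpr65Au by 2.28 ± 0.45 (adjusted p = 0.0212) and Cpr92A by -4.16 ± 0.91 (adjusted p = 0.0422), mutant minus wild type.

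The genes that build and order chitin followed the pupal wave in part. This list of 25 genes holds chitin synthase (kkv), chitin-binding proteins, deacetylases, chitinases and apical matrix proteins, all tested. From larva to 8 h 16 rose and 1 fell in mutants, 17 rose and 1 fell in heterozygotes and 18 rose and 1 fell in wild type, with medians of 3.95, 4.39 and 3.95 on the log2 scale. Of all genes tested, 15.4% rose and 11.3% fell in mutants, 15.9% and 13.8% in heterozygotes and 22.4% and 17% in wild type. From 8 h to 40 h 6 rose and 12 fell in mutants, 7 rose and 12 fell in heterozygotes and 8 rose and 11 fell in wild type, and from 40 h to adult 1 rose and 19, 22 and 21 fell. To 40 h, 26.9% to 28.4% of all genes rose and 25.5% to 28% fell over the genotypes. To the adult, 28.8% to 29.3% rose and 25.7% to 26% fell. The 6 to 8 of 25 rising to 40 h were thus near the background. The genes of the secreted chitin-binding proteins, obst-A and Gasp, stood at 6760 to 10600 and 13800 to 29100 CPM at 8 h, against 211 to 252 and 434 to 575 CPM in the larva. The genes dyl, dy and m, which encode zona pellucida domain proteins of the apical surface, instead peaked at 40 h, at 3250 to 5440, 2340 to 3760 and 3720 to 4780 CPM, against at most 132, 13.7 and 11.4 CPM at 8 h. kkv was high at both pupal stages, 1160 to 1720 CPM at 8 h and 908 to 1600 CPM at 40 h, and 2.72 to 4.73 CPM in the adult. With edgeR 0 genes of this list were called between mutants and either control, with at most 5 at an unadjusted p below 0.05 in any of these comparisons, and 1 fell in heterozygotes against wild type in the adult. In mutants against wild type at 8 h DESeq2 called 1, and edgeR called 5 higher and 1 lower without wild type library 2, where 42.3% of all genes were called. Genotype calls in the lists are those of edgeR unless DESeq2 is named.

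The ecdysone timing genes marked the stages. ftz-f1 was at 12.5 to 30.7 CPM in the larva, 324 to 1160 CPM at 8 h, 15.3 to 16.9 CPM at 40 h and 79.9 to 117 CPM in the adult, so it was highest with the pupal cuticle group. br was at 1260 to 1910 CPM in the larva and 1.06 to 3.23 CPM at 40 h. Hr3 and Hr4, nuclear receptor genes induced by ecdysone, were at 225 to 326 and 161 to 211 CPM at 40 h and at most 16.8 and 3.55 CPM at 8 h. Of the 14 tested genes of this list, 1 fell in mutants against wild type at 8 h, where 7 had an unadjusted p below 0.05 and DESeq2 called 6, all lower. In heterozygotes against wild type at 8 h 1 fell, with 5 at an unadjusted p below 0.05 and 3 called by DESeq2. These counts rest on wild type library 1: without it edgeR called 0 in both, with 0 and 1 at an unadjusted p below 0.05, and without library 2 it called 8 and 7, all lower. In the adult 1 rose in mutants against wild type. Against heterozygotes 0 were called at any stage, where at most 1 had an unadjusted p below 0.05.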

How the data were processed

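Messenger RNA was measured in 24 libraries of 12 groups. RNeasy kits and a stranded Illumina messenger RNA preparation were used, per the labels' protocols. Tools named per the submitters' processing notes are BWA 0.7.12, CASAVA 1.8 and DESeq2. The counting program, its strand setting and the genome build were likewise not given in the sources used here. The authors deposited raw counts per transcript (29872 transcripts, 17441575 to 33353768 counts per library) and a normalized table that was not used. By FlyBase identifier 29393 transcripts, with 98.69% of the counts, matched 13409 genes of the Ensembl annotation of BDGP6.54. Of several transcripts of a gene only the one with most counts over all libraries was used, since they share reads, which kept 45.5% of the summed counts.

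The main test was the one of edgeR 4.0.16 under R 4.3.3 (TMM, filterByExpr with a minimum count of 10, quasi-likelihood F test, 12 groups over all 24 libraries, Benjamini-Hochberg over the 10993 genes tested, 0.05, two-sided). That left 12 residual degrees of freedom, a common dispersion of 0.0521 and 4.13 prior degrees of freedom. On simulated data for mutant against wild type at 40 h (10564 genes) the test recovered 72.9% of 4-fold and 25.5% of 2-fold changes and called 0.0675% of unchanged genes. Each gene was simulated at its mean level over all 24 libraries and not at its 40 h level. No simulated library was made to stand apart. The recovery thus need not hold for genes confined to 1 stage. Alternatives were DESeq2 1.42.0 (Wald test, and its size factors in edgeR), no filter, counts summed over transcripts, the libraries of 1 stage alone, a replicate block and leaving out each library, where a lone library is assumed to vary like the other groups. A group at 0 was given 3 counts over the group as its limit. Neighbouring members within 50000 bases formed a genomic group. Named genes were, for each stage, the 5 highest per kb in wild type. For each step they were up to 6 per direction called in all genotypes, and for each genotype comparison up to 6 called per direction, at 5 CPM or more in some group. For step differences they were up to 4 called members, for the other lists up to 4 genes per list and step, and Edg78E, Edg84A and Pcp were added. Others in the text were chosen after their values were seen. The members and lists were chosen with earlier results of these data known. Sequences were not used here.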

Additional observations from a re-analysis of the deposited data

Results flagged for a closer look

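The step from 40 h to the adult differed between mutants and wild type for 2 cuticle protein genes, by a test of the difference itself. For Cpr65Au the difference, mutant minus wild type, was 2.28: its step was 10.93 ± 0.33 in mutants and 8.65 ± 0.29 in wild type, with 749 and 803 CPM in adult mutants against 567 and 558 CPM in adult wild type. Its values at 40 h, 0.29 and 0.481 CPM in mutants and 0.978 and 1.78 CPM in wild type, are low, and the difference missed the threshold without wild type library 2 at 40 h (1.78), mutant library 1 (1.97) or 2 (2.68) at 40 h, wild type library 1 (2.29) or 2 (2.27) in the adult, or adult mutant library 1 (2.33). For Cpr92A the difference was -4.16: its step was -6.20 ± 0.74 in mutants and -2.04 ± 0.56 in wild type. It was -2.38 and short of the threshold without adult wild type library 2, the library with 19.7 CPM, and was also lost, at -4.34 to -3.96, without mutant library 1 or 2 at either stage or wild type library 1 or 2 at 40 h.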

How the results depend on the processing

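The counts of members called at each step between stages stayed within 1.5 times their value under every alternative and left-out library. Among the genotype comparisons, DESeq2 moved the count to 2 (larva, mutant against wild type), 3 (larva, heterozygote against wild type), 5, 1 and 7 (8 h, for mutants against wild type, for mutants against heterozygotes and for heterozygotes against wild type), 4 (adult, heterozygote against wild type) and, for the step differences in order, 1, 3 and 5. Counts summed over transcripts gave 1 for mutants against wild type at 8 h and 1 for the step difference from 8 h to 40 h. With the libraries of 1 stage alone the counts were 0 and 0 in the larva for the comparisons with heterozygotes, 0 at 8 h and 1 at 40 h for heterozygotes against wild type, and 10, 3 and 7 in the adult, with 1 member, Cpr47Ee, apart from both controls. Leaving out each library gave 0 to 1 for larval mutants against heterozygotes, 1 to 4 for larval heterozygotes against wild type, 0 to 27, 0 to 1 and 2 to 33 at 8 h, 0 to 1, 0 to 1 and 0 to 2 at 40 h, 1 to 5, 0 to 1 and 1 to 2 in the adult, 0 to 15, 0 to 18 and 0 to 3 for the step differences, and 0 to 1 apart from both controls at 8 h and in the adult (Edg91 and Cpr47Ea). Over 107 calls of single named genes and 983 alternative values, 929 kept direction and call, 54 kept direction only and none reversed. DESeq2's size factors shifted the median of all genes by 0.102 to 0.114 (log2) from 8 h to 40 h and by 0.129 to 0.151 from 40 h to adult. The replicate numbers of the labels did not pair the libraries (correlations of deviations -0.14 to 0.09). With them as a replicate block the count was 0 for larval mutants against heterozygotes, 1 for heterozygotes against wild type at 8 h and 0 for mutants against wild type at 40 h. The cause of these shifts was not tested. The share of all genes called with DESeq2, summed counts, the replicate block or 1 stage alone is not given here. The member counts under those settings thus have no background beside them. With 2 libraries a group, changes of 2-fold were mostly beyond reach in the simulated data, which set each gene at its mean level over all stages.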

Other observations

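Genes of sclerotization and pigmentation, which harden and colour cuticle after it is laid down, rose at some steps and fell at others. Of 17 tested genes, 6 rose and 5 fell from larva to 8 h in mutants, 6 rose and 2 fell in heterozygotes and 7 rose and 6 fell in wild type. From 8 h to 40 h 7 rose and 0 fell in mutants, 7 rose and 4 fell in heterozygotes and 6 rose and 4 fell in wild type. From 40 h to adult 6 rose and 5 fell in mutants, 7 rose and 6 fell in heterozygotes and 8 rose and 8 fell in wild type. Over the genotypes, 15.4% to 22.4% of all genes rose and 11.3% to 17% fell to 8 h. To 40 h these shares were 26.9% to 28.4% and 25.5% to 28%, and to the adult 28.8% to 29.3% and 25.7% to 26%. The tyrosine hydroxylase gene ple, whose product starts the pathway to the tanning agents, was at 2.6 to 9.47 CPM in the larva, 22.5 to 90.7 CPM at 8 h, 6.5 to 38.1 CPM at 40 h and 256 to 603 CPM in the adult. Ddc, dopa decarboxylase, was at most 21.3 CPM before the adult and at 41.5 to 72.2 CPM there. The laccase gene stw was instead high at both pupal stages, at 348 to 1120 CPM at 8 h and 614 to 1230 CPM at 40 h. The pigment gene y was highest at 8 h, at 23.1 to 59 CPM, and at most 0.46 CPM in the adult. In this list 0 genes were called by edgeR between mutants and heterozygotes, with at most 3 at an unadjusted p below 0.05 at a stage, and 1 fell in mutants against wild type in the adult. In heterozygotes against wild type 1 fell in the larval disc. Resilin, the gene of the elastic cuticle protein and a member of the chitin list, was at 94.3 CPM, against 7.52 to 18.7 CPM in the other 5 libraries, in heterozygote library 1 at 40 h.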
